A study of Mus musculus with 10 samples.

Results

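The rearranged Igk genes listed as unproductive in 6 clonotype tables were examined. Members were all rows whose functionality was given as unproductive, 5564 of 44103 Igk clonotypes and of 239632 clonotypes in the series. A clonotype here is 1 row, that is a V gene and allele, a J gene and a CDR3 amino acid string, with the number of reads that carried it. The cells were sorted from the peritoneal cavity of C57BL/6 mice 6 to 8 weeks old, and genomic DNA was amplified with a degenerate V kappa primer plus primers for V genes favoured in B-1a cells. WT B-1a cells (B220lo CD5+, wild type), Igll1-/- B-1a cells (the same gate, Igll1 knockout, which removes the lambda5 part of the surrogate light chain from every cell of the mouse) and WT B-2 cells (B220hi, wild type) had 2 libraries each. The labels do not say whether the replicates were separate mice, so p-values measure the spread between these libraries, which may be technical.

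A B cell joins 1 of many V kappa segments to 1 of the J kappa segments on each allele, and the join is imprecise. A join that carries a stop codon or uses a defective V segment cannot encode a light chain, but it stays in the genome of a cell whose other rearrangement works, and DNA amplification recovers it. Such passenger joins are commonly used as a view of V and J choice before selection on the receptor, whereas productive joins also carry the effect of selection. The surrogate light chain pairs with new heavy chains in the pre-B cell receptor before a light chain is made.

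All 44103 rows had both CDR3 anchor residues, a cysteine before and a phenylalanine after, so the tables hold joins in frame and out-of-frame joins were not analysed here. An unproductive row therefore had a stop codon inside the CDR3, written as an asterisk in the strings below, or was labelled so without one. What set the label of the latter rows was not tested. None of the productive rows had a stop codon in the CDR3. The following CDR3 strings, read from the deposited tables, belong to large unproductive clonotypes and show 3 forms found in the class: a CDR3 with no stop codon, here of a V gene marked as a pseudogene, a short CDR3 with a stop codon, and a long CDR3 with stop codons.

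IGKV9-128 with IGKJ5: LQHASSPLT

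IGKV9-128 with IGKJ1: LQHASSPWT

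IGKV9-128 with IGKJ2: LQHASSPYT

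IGKV8-30 with IGKJ5: QQYYS*LT

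IGKV15-103 with IGKJ5: QQGQS*LT

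IGKV4-53 with IGKJ5: *QWSSYPLT

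IGKV8-30 with IGKJ5, long: QQYYSYPAG*RPGSLFLSAGL*LSSLT

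IGKV8-30 with IGKJ5, largest productive: QQYYSYPLT

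The last string is the largest productive clonotype of IGKV8-30 and IGKJ5 in each of the 6 libraries, with 5031 to 11787 reads, and is shown for comparison. The short unproductive string of the same genes is 1 residue shorter than it and has its stop codon at position 6, counted from 1 at the first CDR3 residue. The long string begins with the same 7 residues.

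Unproductive clonotypes made up 13.6% of the clonotypes of WT B-1a replicate 1 (982 of 7234, 95% Wilson interval 12.8 to 14.4%) and 13.3% of replicate 2 (927 of 6963, 12.5 to 14.1%). The Igll1-/- B-1a libraries had 13.2% (755 of 5701, 12.4 to 14.1%) and 12.9% (897 of 6940, 12.2 to 13.7%). The WT B-2 libraries had 11.4% (990 of 8652, 10.8 to 12.1%) and 11.8% (1013 of 8613, 11.1 to 12.5%). Group means were 13.4% ± 0.185, 13.1% ± 0.225 and 11.6% ± 0.225 (SD, n = 2), so both B-1a groups lay above WT B-2 cells in every library. With only V genes marked functional, WT B-1a minus WT B-2 cells was -0.287 percentage points and Igll1-/- minus WT B-1a cells 2.19. With 2 libraries against 2 an exact two-sided permutation test cannot go below p = 0.333, the value it gave for each of the 3 pairs of groups (adjusted over the 3, p = 0.333). The intervals cover counting error only, because reads of a PCR without molecular tags are not independent molecules.

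By reads the class was smaller and the groups stood in another order. It held 4.66% and 4.67% of the reads of WT B-1a cells, 2.84% and 1.38% of Igll1-/- B-1a cells and 2.06% and 2.61% of WT B-2 libraries, out of 214000 to 288396 reads in a library. WT B-1a libraries were thus above all the others, and the Igll1-/- B-1a and WT B-2 libraries overlapped. The exact permutation p was 0.333 for WT B-1a cells against either other group and 1 between the other two. With only V genes marked functional the order reversed. The read share of WT B-1a minus WT B-2 cells was then -0.274 percentage points, and that of Igll1-/- minus WT B-1a cells 0.600.

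The larger read share of WT B-1a cells lay in clonotypes with no stop codon in the CDR3. These took 3.79% and 3.83% of all reads in WT B-1a cells, 0.16% and 0.725% in Igll1-/- B-1a cells, and 1.36% and 1.74% in WT B-2 libraries. Clonotypes with a stop codon in a CDR3 of up to 12 residues took 0.635% to 0.784% of reads in 5 libraries and 1.17% in Igll1-/- B-1a replicate 1. The groups did not separate on this second kind. Clonotypes with a stop codon in a longer CDR3 took 1.51% of the reads of Igll1-/- B-1a replicate 1 and 0.019% to 0.149% elsewhere. The limit of 12 residues was set after the lengths were seen.

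**Figure D1:**
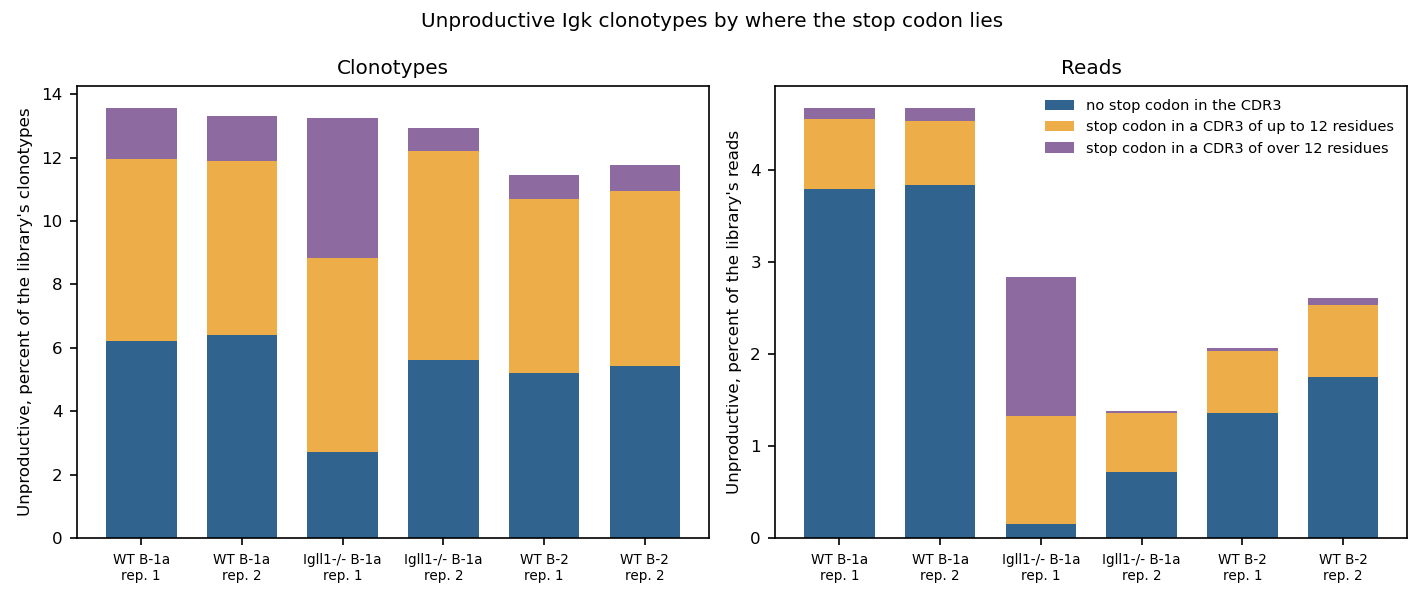
Unproductive clonotypes as a percent of each library's clonotypes (left) and reads (right), stacked by whether the CDR3 holds a stop codon and by CDR3 length. WT B-1a libraries carry 3.79% and 3.83% of their reads in clonotypes with no stop codon in the CDR3, and Igll1-/- B-1a replicate 1 stands apart by its long CDR3s.

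Igll1-/- B-1a replicate 1 stood apart from the other libraries in this class. Its clonotypes with no stop codon in the CDR3 were 20.5% of the unproductive ones, against 43.6% to 48.2% in the other 5 libraries, and its long ones were 33.4% against 5.46% to 12%. V use also differed more between the Igll1-/- B-1a replicates than within the other groups. The share of unproductive clonotypes that would have to change V gene to turn one replicate into the other was 40.5% for Igll1-/- B-1a cells, 19.6% for WT B-1a cells and 14.3% for WT B-2 cells. In productive clonotypes the same distance was 18.1%, 10.5% and 7.09%. Results for Igll1-/- B-1a cells are therefore given with and without this library where it decides them.

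Clonotypes with no stop codon in the CDR3 came mostly from a few V genes. Of 2363 such clonotypes, 75.2% belonged to 7 V genes for which at least 50% of the clonotypes listed with that V gene alone were unproductive. IGKV9-128, marked in the tables as a pseudogene, was unproductive in 928 of 943 clonotypes (98.4%, from 94.9% to 99.3% by library). IGKV3-9 was unproductive in 94.9% of 236 clonotypes, IGKV9-129 (marked as an open reading frame without proof of function) in 90.8% of 76, IGKV9-120 in 89.8% of 294 and IGKV9-124 in 89.1% of 110. IGKV14-130 and IGKV9-123 were mixed, with 54.0% of 396 and 50% of 124. This list was drawn up after the values were seen. Apart from IGKV9-128 and IGKV9-129, these genes are marked as functional.

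Of these 7 V genes, 6 lie within 1 stretch of the locus. In the RefSeq annotation of the mouse genome (GRCm38.p6), in which 100 of the 103 V genes of the tables were found by symbol, Igk lies on chromosome 6. Counting V genes from the J end, IGKV9-120 is number 143 and IGKV14-130 number 154 of 162, and IGKV9-123, IGKV9-124, IGKV9-128 and IGKV9-129 lie between them. Mostly productive V genes lie in that stretch too, among them IGKV1-122, IGKV11-125 and IGKV14-126, of whose clonotypes 1.69%, 4.42% and 7.12% were unproductive. IGKV3-9 is number 9, at the J end. V genes of 1 family resemble each other, and clonotypes listed with several V genes were not counted to any: they were 1.99% to 3.84% of the unproductive and 6.07% to 7.07% of the productive clonotypes of a library.

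IGKV9-128 had the highest mean share of the class and kept the 3 groups apart. It made up 26.3% and 32.5% of the unproductive clonotypes of WT B-1a cells, 4.90% and 6.69% of Igll1-/- B-1a cells and 13.0% and 14.1% of WT B-2 libraries. The share was lower in Igll1-/- than in WT B-1a cells by 2.34 ± 0.32 on the log2 scale (a log2 difference of -2.34, edgeR adjusted p = 0.000239) and higher in WT B-1a than in WT B-2 cells by a log2 difference of 1.11 ± 0.30 (edgeR adjusted p = 0.0411). Against WT B-2 cells, Igll1-/- B-1a cells had a log2 difference of -1.22 ± 0.31 (edgeR adjusted p = 0.0191). The call between the genotypes stood in all 17 alternatives that gave a value, while that between the wild-type groups was lost without any one of the 4 wild-type libraries (edgeR adjusted p from 0.172 to 0.432) and that of Igll1-/- B-1a against WT B-2 cells in 10 of 17 alternatives, among them those without any one of the same libraries (edgeR adjusted p from 0.0774 to 0.202). Errors of log2 differences are standard errors of the fit, here and in what follows.

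In reads the contrast was wider. IGKV9-128 took 9293 and 9016 unproductive reads in WT B-1a cells, 111 and 521 in Igll1-/- B-1a cells, and 2415 and 2678 in WT B-2 libraries. As a percent of all reads of the library this was 3.38% and 3.68%, 0.0519% and 0.19%, and 0.837% and 0.929%. No productive IGKV9-128 clonotype with IGKJ1, IGKJ2 or IGKJ5 had more than 2 reads, so the class holds nearly all of the rearrangements of this V gene.

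The large IGKV9-128 clonotypes differed by J gene and by library. With IGKJ1, LQHASSPWT had 5554 reads in WT B-1a replicate 1 and 261 in replicate 2, 15 and 18 in Igll1-/- B-1a cells, and 238 and 20 in WT B-2 libraries. With IGKJ5, LQHASSPLT had 2194 and 6966 reads in WT B-1a cells, 36 and 37 in Igll1-/- B-1a cells, and 1348 and 1251 in WT B-2 libraries. With IGKJ2, LQHASSPYT had 248 and 430 reads, 6 and 386 reads, and 414 and 198 reads in the same order. The first was high in 1 library only, the second was higher in both wild-type groups than in both Igll1-/- B-1a libraries, and the third was low only in Igll1-/- B-1a replicate 1. All 3 matched the V gene at 100% and were found in all 6 libraries.

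Part of the small IGKV9-128 clonotypes carried a CDR3 that belonged to another V gene. Of its 928 unproductive clonotypes, 33.8% had the CDR3 string and J gene of a productive clonotype of a different V gene in the same library with at least 10 times the reads, against 14.0% of all productive clonotypes. They held 3.05% of the IGKV9-128 reads. By library this form took 24.4% and 36.9% of the IGKV9-128 clonotypes in WT B-1a, 67.6% and 38.3% in Igll1-/- B-1a and 27.9% and 39.2% in WT B-2 cells, and 1.89% and 3.78%, 38.7% and 5.95%, and 2.36% and 3.14% of their reads. Igll1-/- B-1a replicate 1 was the highest in both, with 25 of 37 clonotypes. Among them was LQHGESPYT with IGKJ2, with 58 and 108 reads in WT B-1a libraries under IGKV9-128, where IGKV14-126 with the same J gene and CDR3 had 18300 and 17325 productive reads. The part of such mixed sequences in the counts was not tested.

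IGKV3-9 showed another order, highest in WT B-2 cells. It made up 9.70% and 7.31% of the unproductive clonotypes of WT B-2 libraries, 3.46% and 1.08% of WT B-1a cells, and 0.795% and 0.446% of Igll1-/- B-1a libraries. The groups did not overlap. The log2 difference was -3.79 ± 0.54 for Igll1-/- B-1a against WT B-2 cells (edgeR adjusted p = 0.00119), -1.89 ± 0.44 for WT B-1a against WT B-2 cells (edgeR adjusted p = 0.029) and -1.90 ± 0.58 for Igll1-/- against WT B-1a cells (edgeR adjusted p = 0.0396). The last difference stood in 8 of 16 alternatives. It was -0.82 without WT B-1a replicate 1 (edgeR adjusted p = 0.508), and it did not pass without Igll1-/- B-1a replicate 2 (edgeR adjusted p = 0.123) or either WT B-2 library (edgeR adjusted p = 0.110 and 0.104). Without clonotypes near a larger one it was -0.53 (edgeR adjusted p = 0.757), and weighted by reads it was 0.25. The difference between the wild-type groups stood in 12 of 16 and was lost without WT B-1a replicate 2 (edgeR adjusted p = 0.203) or either WT B-2 library (edgeR adjusted p = 0.412 and 0.185). Its largest clonotypes, MQSMEELT with IGKJ5 (149 reads) and MQSMEDPWT with IGKJ1 (147 reads), were in WT B-2 libraries. These and other clonotypes beyond the 3 largest of a library were chosen after their values were seen.

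IGKV9-120 and IGKV14-130, the other V genes of that stretch with many members, did not pass the test between groups. IGKV9-120 made up 3.77% and 2.80% in WT B-1a, 2.38% and 8.81% in Igll1-/- B-1a and 4.34% and 6.02% in WT B-2 libraries. IGKV14-130 made up 3.05% and 1.08%, 0.662% and 10.3%, and 3.33% and 4.34%. In both, Igll1-/- B-1a replicate 1 was the lowest and replicate 2 the highest of the 6 libraries. Without replicate 2, the log2 difference of IGKV14-130 between Igll1-/- B-1a and WT B-2 cells was -2.53 (edgeR adjusted p = 0.00765), and without replicate 1 it was 1.42 (edgeR adjusted p = 0.00401), so its direction rested on the library.

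V use was compared between the unproductive and productive clonotypes of the same library, which asks how far the 2 classes draw on the same V genes. Of 84 V genes with enough clonotypes to test, 60 (71.4%) differed by edgeR's quasi-likelihood test at an adjusted p below 0.05, 9 higher and 51 lower in the unproductive class. The functionality label and the V gene marks come from the same reference genes, so a p-value for a V gene not marked as functional is not independent evidence. The mark did not fix the label. Of the clonotypes of IGKV4-60 and IGKV4-77, marked as pseudogenes like IGKV9-128, 8.66% and 6.96% were unproductive. All 5 V genes tested of the IGKV9 family were higher, also with TMM and DESeq2 scaling, with a median log2 difference of 5.88, beside -0.78 over all 84. IGKV9-128 made up 16.2% ± 10.9 (SD, n = 6) of unproductive and 0.04% ± 0.025 of productive clonotypes, a log2 difference of 8.38 ± 0.32 (edgeR adjusted p = 2.31e-72), higher in 6 of 6 libraries. IGKV9-120 had a log2 difference of 5.88 ± 0.19, IGKV3-9 of 6.98 ± 0.45 and IGKV14-130 of 2.95 ± 0.16. These 3 V genes are marked as functional, but 89.8%, 94.9% and 54.0% of their clonotypes carry the unproductive label, and 98.4% of those of IGKV9-128. For such V genes the comparison of classes restates the label, so its p-values are not independent evidence, whatever the mark.

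The 51 lower V genes included 16 of the 25 V genes tested in the IGKV4 family (3 with TMM scaling and 2 with DESeq2), and none of these 25 was higher. The median of that family, -0.77, was close to that of all V genes. IGKV1-110 fell by 1.60 ± 0.19 on the log2 scale, with 0.917% to 3.90% of unproductive against 4.52% to 8.11% of productive clonotypes. Because the shares of a class sum to 1, the many clonotypes of the IGKV9 genes lower the shares of all other V genes. With TMM scaling, which removes such a common shift, 26 V genes differed, 10 higher and 16 lower, and the median log2 difference was -0.31. Restricted to V genes marked as functional, 31 of 75 differed, 7 higher and 24 lower. Of the 9 V genes tested that are not marked as functional, 3 were higher and 4 lower, with a median of -0.77.

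The diversity of V genes was lower in the unproductive class. The effective number of V genes, the exponential of the Shannon entropy of the clonotype shares, was 28.7 and 24.3 in unproductive clonotypes of WT B-1a cells, 23.1 and 33.9 of Igll1-/- B-1a cells and 42.6 and 41.4 of WT B-2 libraries. In productive clonotypes it was 54.1 and 56.0, 47.7 and 47.4, and 65.5 and 64.8. The difference was -23.6 ± 5.89 (SD, n = 6) and lower in 6 of 6 libraries (exact sign-flip permutation p = 0.0312, the smallest that 6 pairs allow, adjusted over 6 measures p = 0.0375). In both classes the WT B-2 libraries were the most diverse. The classes were not brought to the same number of clonotypes for this measure.

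Unproductive clonotypes were also smaller. They had 8.52 ± 3.51 reads on average, against 40.2 ± 3.20 for productive ones, and 69.7% ± 1.61 of them had 1 read, against 56.6% ± 0.53 (SD, n = 6). The 10 largest held 60.0% ± 13.6 of the reads of the class, against 26.7% ± 7.83 of productive reads. The classes differed in size, with 755 to 1013 unproductive and 4946 to 7662 productive clonotypes in a library. Class size was not equalized, so 10 clonotypes were a larger part of the unproductive class. V genes not marked as functional gave 24.9% ± 8.20 of unproductive and 7.78% ± 1.37 of productive clonotypes. That measure is not independent of the class, because label and marks come from the same reference genes. IGKV9-128 alone made up 16.2% of unproductive clonotypes. Each of these 4 differences had one direction in 6 of 6 libraries, with the same exact permutation p of 0.0312 (adjusted p = 0.0375). The mean identity to the germline V gene was 93.3% ± 0.581 against 93.5% ± 0.222, a difference within its spread (-0.20 ± 0.49, exact permutation p = 0.375).

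V use was then compared between groups within the unproductive class. Igll1-/- B-1a cells differed from WT B-1a cells in 15 of 84 V genes (17.9%) by edgeR's quasi-likelihood test, 7 higher and 8 lower. With TMM scaling there were again 15, 5 higher and 10 lower, and with DESeq2 13, 4 higher and 9 lower. In productive clonotypes of the same libraries 15 of 84 differed as well (17.9%). The lists shared 10 V genes, 66.7% of each, and all 10 had the same direction in both classes. Both classes come from the same libraries, so these are side-by-side values. No V gene passed the test of whether the difference between genotypes was unequal in the 2 classes (0 of 84, 0%, by edgeR at an adjusted p below 0.05, and 8 at an unadjusted p below 0.05).

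IGKV14-126, a V gene that is known from B-1a cells, had the smallest adjusted p between the genotypes. It made up 2.95% and 3.45% of unproductive clonotypes in WT B-1a libraries (29 and 32 clonotypes), 0% and 0.111% in Igll1-/- B-1a libraries (0 and 1) and 0.606% and 0.888% in WT B-2 libraries (6 and 9). The ratio of WT B-1a to Igll1-/- B-1a cells was 52.8, with a 95% exact counting interval of 9.13 to 2119 (edgeR adjusted p = 3.53e-05). WT B-1a cells were above WT B-2 cells by a log2 difference of 2.09 ± 0.37 (edgeR adjusted p = 0.00326). This call was lost without WT B-1a replicate 2 (edgeR adjusted p = 0.0714) or either WT B-2 library (edgeR adjusted p = 0.310 and 0.166), and by reads the direction turned (log2 difference -2.52, edgeR adjusted p = 0.274). In WT B-2 replicate 2, 914 unproductive reads belonged to 1 clonotype, LQHGESPYT with IGKJ2. It was listed as productive in every other library. Its part in the turned direction was not tested. In productive clonotypes the shares were 5.20% and 5.57%, 0.789% and 0.827%, and 1.79% and 1.55%. Counted in clonotypes, both classes had the same order of groups.

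IGKV4-91, a V gene with a specific primer in this assay and known from B-1a cells that bind phosphatidylcholine, was also highest in WT B-1a cells. Its unproductive shares were 3.46% and 2.80% in WT B-1a, 0.795% and 1.67% in Igll1-/- B-1a and 0.707% and 0.691% in WT B-2 libraries. The log2 difference was 2.16 ± 0.37 for WT B-1a against WT B-2 cells (edgeR adjusted p = 0.00326) and -1.32 ± 0.35 for Igll1-/- against WT B-1a cells (edgeR adjusted p = 0.0247). The latter stood in 8 of 18 alternatives. It did not pass without Igll1-/- B-1a replicate 1 (log2 difference -0.91, edgeR adjusted p = 0.087), either WT B-1a library (edgeR adjusted p = 0.148 and 0.0712) or either WT B-2 library (edgeR adjusted p = 0.0814 and 0.0820), and by reads it was -0.69 (edgeR adjusted p = 0.644). The former stood in 12 of 18 and was lost without either WT B-2 library (edgeR adjusted p = 0.301 and 0.166). Productive shares were 7.02% and 6.53%, 3.07% and 3.39%, and 1.54% and 1.38%.

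Many of these clonotypes lay close to larger ones. Of the 61 unproductive IGKV14-126 clonotypes of WT B-1a cells, 42 lay within 1 edit of a CDR3 of the same library, V gene and J gene with at least 10 times the reads, and of the 60 IGKV4-91 clonotypes, 41. This was common over all V genes. In WT B-1a replicates 1 and 2 it held for 62.8% and 55.1% of all unproductive clonotypes. For all productive clonotypes it held for 64.2% and 63.6%. When all clonotypes of this kind were left out, 7 V genes differed between the B-1a genotypes, 4 between Igll1-/- B-1a and WT B-2 cells and 1 between the wild-type groups. IGKV14-126 still differed between the genotypes (edgeR adjusted p = 0.00497), and IGKV4-91 did not (edgeR adjusted p = 0.603). Between the wild-type groups neither did (edgeR adjusted p = 0.216 and 0.148). Whether these small clonotypes are copies of the large ones with a reading error was not tested.

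IGKV15-103, marked as an open reading frame, was higher in Igll1-/- B-1a cells. It made up 11.3% and 6.80% of unproductive clonotypes there, 2.14% and 1.73% in WT B-1a and 2.12% and 2.76% in WT B-2 libraries. The log2 difference was 2.22 ± 0.33 against WT B-1a cells (edgeR adjusted p = 0.000503) and 1.88 ± 0.32 against WT B-2 cells (edgeR adjusted p = 0.00282), and without Igll1-/- B-1a replicate 1 it was 1.81 and 1.47, past the threshold in both. Against WT B-2 cells the call was lost without WT B-2 replicate 1 (edgeR adjusted p = 0.0787) or 2 (edgeR adjusted p = 0.0790). Against WT B-1a cells the call stood in all 17 alternatives that gave a value for this V gene. Productive shares were 5.24% and 4.24% in Igll1-/- B-1a cells against 1.72% to 2.13% in the other libraries.

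IGKV3-7 and IGKV1-110 were higher in Igll1-/- B-1a cells as well. IGKV3-7 made up 3.44% and 6.24% in Igll1-/- B-1a, 2.04% and 0.971% in WT B-1a and 1.01% and 0.79% in WT B-2 libraries, log2 differences of 1.69 ± 0.43 and 2.43 ± 0.45 (edgeR adjusted p = 0.0201 and 0.00385). IGKV1-110 made up 3.05% and 3.90%, 0.917% and 1.19%, and 1.92% and 1.48%, log2 differences of 1.73 ± 0.32 and 1.04 ± 0.30 (edgeR adjusted p = 0.00281 and 0.037). Both Igll1-/- B-1a libraries lay above the other 4 for both genes. Between the genotypes the call stood in 11 of 18 alternatives for IGKV3-7 and in 13 of 18 for IGKV1-110, and was lost without WT B-1a replicate 1 for the latter (edgeR adjusted p = 0.0782). For IGKV3-7 it was lost without WT B-1a replicate 2 (edgeR adjusted p = 0.152), Igll1-/- B-1a replicate 2 (edgeR adjusted p = 0.0564) or either WT B-2 library (edgeR adjusted p = 0.0698 and 0.0711). Against WT B-2 cells the call for IGKV3-7 was lost without either WT B-2 library (edgeR adjusted p = 0.0564 and 0.0967), and that for IGKV1-110 was lost in 12 of 18 alternatives, including without any library but Igll1-/- B-1a replicate 1 (edgeR adjusted p from 0.106 to 0.433). IGKV4-53 and IGKV14-111 were among the higher V genes too, with mean shares of 2.53% ± 0.206 against 0.842% ± 0.182 and of 1.81% ± 0.123 against 0.734% ± 0.03 in WT B-1a cells (SD, n = 2).

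IGKV8-30 was called with 1 library and not without it. It made up 27.4% and 6.24% of unproductive clonotypes in Igll1-/- B-1a, 5.70% and 4.53% in WT B-1a and 3.84% and 3.75% in WT B-2 libraries. The log2 difference against WT B-1a cells was 1.71 ± 0.52 (edgeR adjusted p = 0.0374), and without Igll1-/- B-1a replicate 1 it was 0.28 (edgeR adjusted p = 0.584). Against WT B-2 cells it was 2.14 ± 0.53 (edgeR adjusted p = 0.0186), and 0.72 without that library (edgeR adjusted p = 0.121). In that library 187 of the 207 clonotypes had a CDR3 over 12 residues. Shares without the long ones were 2.65% and 5.91%, 4.68% and 3.56%, and 2.83% and 2.96%, which overlap between the groups.

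Of the V genes lower in Igll1-/- B-1a cells than in WT B-1a cells, IGKV9-128, IGKV14-126, IGKV4-91 and IGKV3-9 are described above, and the other 4 had 8 to 29 clonotypes in WT B-1a cells. IGKV4-52 had 15 unproductive clonotypes in WT B-1a, 12 in WT B-2 and 0 in Igll1-/- B-1a cells, at least 4.33-fold and 3.30-fold lower when the 0 is set to 3 clonotypes over the group. IGKV12-89 had 8 in WT B-1a and 0 in Igll1-/- B-1a cells, at least 2.31-fold lower. IGKV2-112 had 12 and 1, and IGKV8-28 had 29 and 7. IGKV8-28 had a log2 difference of -1.84 ± 0.52 against WT B-1a cells (edgeR adjusted p = 0.0272) and -2.49 ± 0.49 against WT B-2 cells (edgeR adjusted p = 0.00446). The former call stood in 8 of 18 alternatives and was lost without any one of the 6 libraries, and the latter stood in 15 of 18 and was lost without WT B-2 replicate 2. IGKV7-33, with 17 and 2 clonotypes, did not pass the test. IGKV1-117 and IGKV10-96, among the 10 V genes with the highest mean share, made up 1.59% to 4.53% and 1.62% to 3.23% of a library and passed in no comparison of the groups.

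Against WT B-2 cells, Igll1-/- B-1a cells differed in 10 of 84 V genes in the unproductive class (11.9%), 5 in each direction, and in 19 in the productive class (22.6%). The lists shared 8, which is 80% of the first and 42.1% of the second. WT B-1a cells differed from WT B-2 cells in 6 V genes in the unproductive class (7.14%), 3 in each direction, and in 2 in the productive class (2.38%), which were IGKV14-126 and IGKV4-91 and were also higher in the unproductive class. The higher ones were IGKV9-128, IGKV14-126 and IGKV4-91, and the lower ones IGKV3-9, IGKV6-23 and IGKV3-2. IGKV3-2 had only 1 unproductive clonotype in WT B-1a and 12 in WT B-2 cells, and its call stood in 1 of 18 alternatives. IGKV6-23 made up 0.407% and 0.324% in WT B-1a against 1.41% and 1.28% in WT B-2 libraries (log2 difference -1.87 ± 0.47, edgeR adjusted p = 0.0319), a call that stood in 5 of 18 alternatives and was lost without any one of the 4 wild-type libraries. With TMM scaling 3 V genes differed, all higher.

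The count for WT B-1a against WT B-2 cells rested on single libraries. It was 1 without WT B-1a replicate 2, 3 without WT B-1a replicate 1, and 0 without either WT B-2 library by edgeR, with 9 and 8 V genes at an unadjusted p below 0.05. For Igll1-/- B-1a against WT B-2 cells it was 3 and 1 without WT B-2 replicate 1 and 2. For Igll1-/- against WT B-1a cells it was 5 and 7 without WT B-1a replicate 1 and 2, and 6 without either WT B-2 library, which are no part of that comparison but share its estimate of spread.

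**Figure D2:**
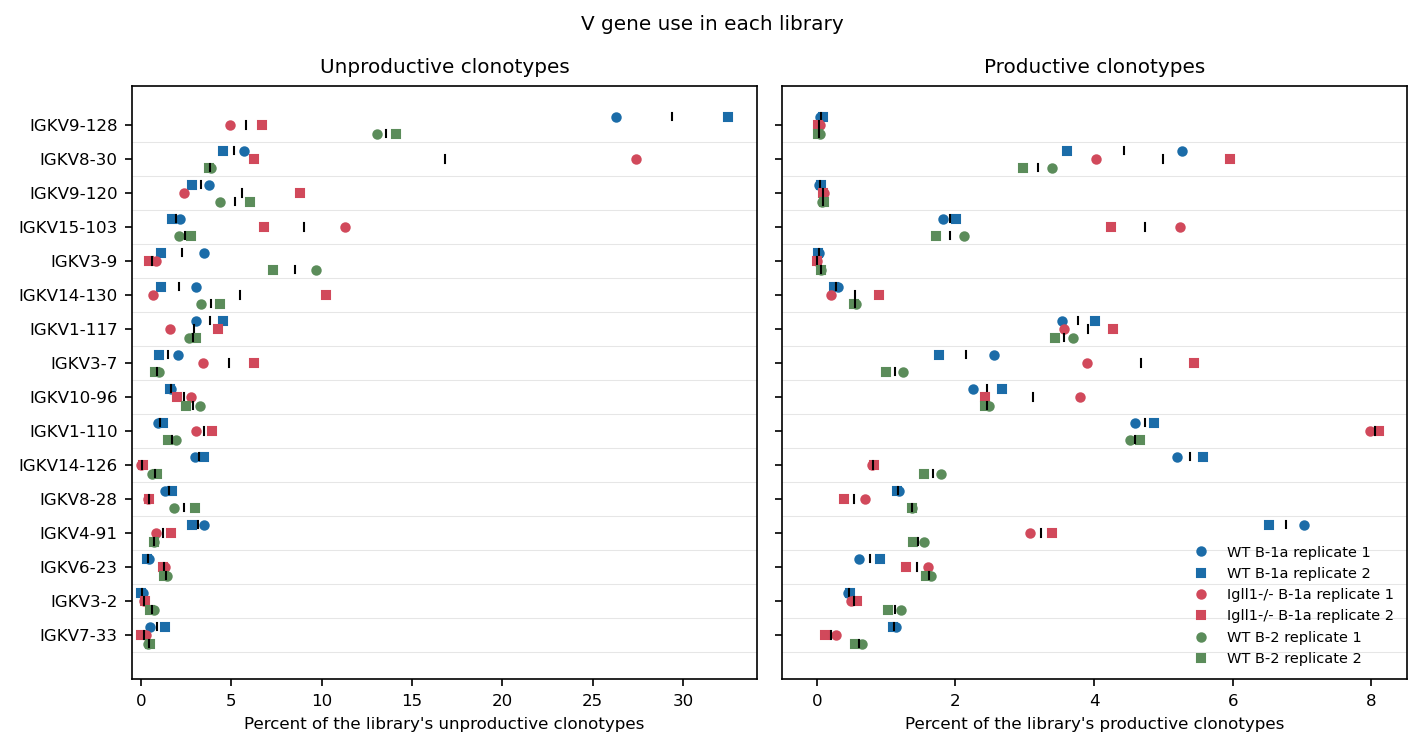
Percent of unproductive (left) and productive (right) clonotypes of a library that belong to each of 16 V genes, with 1 mark per library and a black bar at the group mean (n = 2). IGKV9-128 spans 4.90% to 32.5% of unproductive clonotypes but under 0.1% of productive ones. IGKV14-126, IGKV4-91, IGKV15-103 and IGKV3-7 have a similar order of group means in both panels. IGKV1-110 is highest in Igll1-/- B-1a cells in both, but the means of the wild-type groups change order.

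Stop codons within CDR3s were not spread evenly. Among 1985 clonotypes with a 9-residue CDR3 and 1 stop codon, it lay at position 1 in 471 (23.7%), at position 2 in 467 (23.5%), at position 4 in 340 (17.1%), at position 3 in 234 (11.8%), at position 6 in 229 (11.5%) and at position 8 in 191 (9.62%). Position 5 had 50, position 7 had 2 and position 9 had 1. Of the 191 with a stop codon at position 8, 133 used IGKJ1 and 55 used IGKJ2. In the 9-residue strings of IGKV9-128 printed above, position 7 is proline and position 9 threonine, and position 8 is tryptophan with IGKJ1 and tyrosine with IGKJ2.

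Most of these stop codons stood where a common productive CDR3 has glutamine, tyrosine or tryptophan. Of 2416 clonotypes with 1 stop codon in a CDR3 of up to 12 residues and 1 V gene, 1991 (82.4%) had a productive clonotype of the same library, V gene and J gene that differed only at the stop. The residue there was glutamine in 943 (47.4%), tyrosine in 454 (22.8%) and tryptophan in 402 (20.2%), each of whose codons can become a stop codon by 1 base change. How common these residues are in productive CDR3s was not counted, so no excess is shown, and the origin of the stop codons was not tested. The productive partner had more reads in 1872 of 1991 (94.0%). By library, glutamine ranged from 44.0% to 50%. Of all clonotypes of this kind, 70.6% lay within 1 edit of a productive clonotype with at least 10 times the reads, against 33.0% of those with no stop codon in the CDR3.

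The 8-residue CDR3s were different. Of 360 with 1 stop codon, 211 (58.6%) had it at position 6. By library this share ran from 30.3% in Igll1-/- B-1a replicate 2 to 67.2% in WT B-1a replicate 2. In the former library position 2 held 30.3% as well. Of the 211, 28 (13.3%) lay within 1 edit of a productive clonotype with at least 10 times the reads. The 211 clonotypes used 39 V genes, led by IGKV8-30 with 34 clonotypes, IGKV15-103 with 23 and IGKV4-80 with 18, and held 5079 reads in all. IGKJ5 was used by 127, IGKJ2 by 60 and IGKJ1 by 23. The strings QQYYS*LT of IGKV8-30, QQGQS*LT of IGKV15-103 and HQWSS*LT of IGKV4-80 are of this form, with the V part up to position 5, a stop codon and the last residues of the J gene.

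These clonotypes were among the larger ones of the class. QQYYS*LT had 251 and 134 reads in WT B-1a cells, 3 and 2 in Igll1-/- B-1a cells and 88 and 201 in WT B-2 libraries. HQWSS*LT had 127 and 195, then 0 and 0, then 90 and 134. QQGQS*LT was the reverse, with 1 and 3 reads, then 1190 and 1, then 0 and 0. The first and second were higher in both wild-type groups than in Igll1-/- B-1a cells in every library, and the third was large in 1 Igll1-/- B-1a library.

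**Figure D3:**
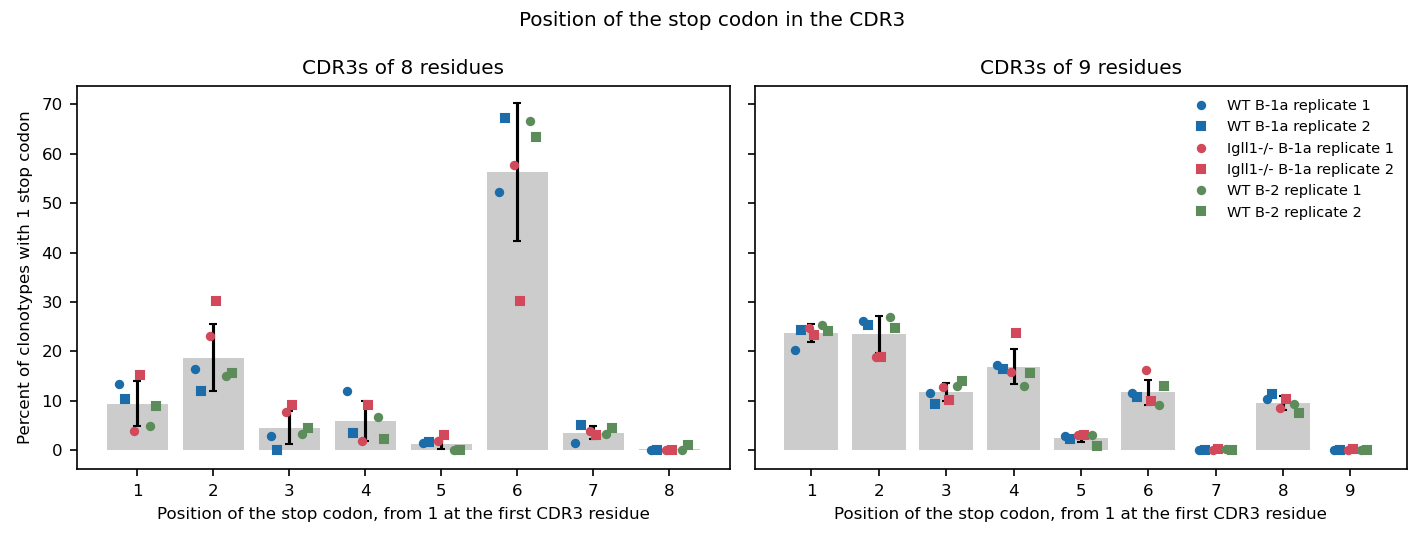
Position of the stop codon in CDR3s of 8 and of 9 residues with 1 stop codon, as a percent of such clonotypes in a library. Grey bars are means over the 6 libraries with SD, and marks are libraries. Position 6 holds 58.6% of the 8-residue CDR3s pooled over libraries, but 30.3% in Igll1-/- B-1a replicate 2. The 9-residue CDR3s spread over positions 1 to 4, 6 and 8.

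Most reads with a long CDR3 in Igll1-/- B-1a replicate 1 belonged to 1 clonotype. The IGKV8-30 and IGKJ5 string of 27 residues shown above had 2551 reads there, 42.0% of the unproductive reads and 1.19% of all reads of the library, and 1 to 9 reads in each of the other 5. The library had 252 clonotypes with a stop codon in a long CDR3, with 3230 reads, of which 187 clonotypes were of IGKV8-30. Of these 187, 182 had the same length, 128 began with the same 9 residues and 108 lay within 1 edit of it. Whether these neighbours are errors of copying or reading of the large one was not tested.

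Large unproductive clonotypes differed from library to library in the Igll1-/- group. The 10 largest held 70.6% and 42.0% of unproductive reads in Igll1-/- B-1a cells, 70.8% and 74.5% in WT B-1a cells and 49.5% and 52.5% in WT B-2 libraries. WT B-1a libraries were above WT B-2 libraries (72.7% ± 2.66 against 51.0% ± 2.16, SD, n = 2, exact permutation p = 0.333). Igll1-/- B-1a cells had 56.3% ± 20.2, below both WT B-1a libraries and on either side of WT B-2 cells. In WT B-1a cells the first 2 places went to IGKV9-128 in both libraries, and in Igll1-/- B-1a replicate 1 to IGKV8-30 and IGKV15-103.

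Some unproductive clonotypes were listed as productive in another table. IGKV14-126 with IGKJ2 and LQHGESPYT had 914 reads as unproductive in WT B-2 replicate 2, its second largest, but 18300, 17325, 123, 138 and 1025 productive reads in WT B-1a, Igll1-/- B-1a and WT B-2 replicate 1 libraries. KQSYNLYT of IGKV8-21 and IGKJ2 had 384 unproductive reads in Igll1-/- B-1a replicate 2 and 209 to 1137 productive reads in the other 5. Of 4101 distinct unproductive combinations of V gene, J gene and CDR3, 335 (8.17%) were productive in at least 1 library, and none of these had a stop codon in the CDR3. They held 49 to 95 clonotypes of a library. The label belongs to the row as a whole, so rows that share these 3 features can differ elsewhere. The unproductive rows of LQHGESPYT and KQSYNLYT named above matched the V gene at 100%. What set the label of such rows, and whether it is stable, was not tested.

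**Figure D4:**
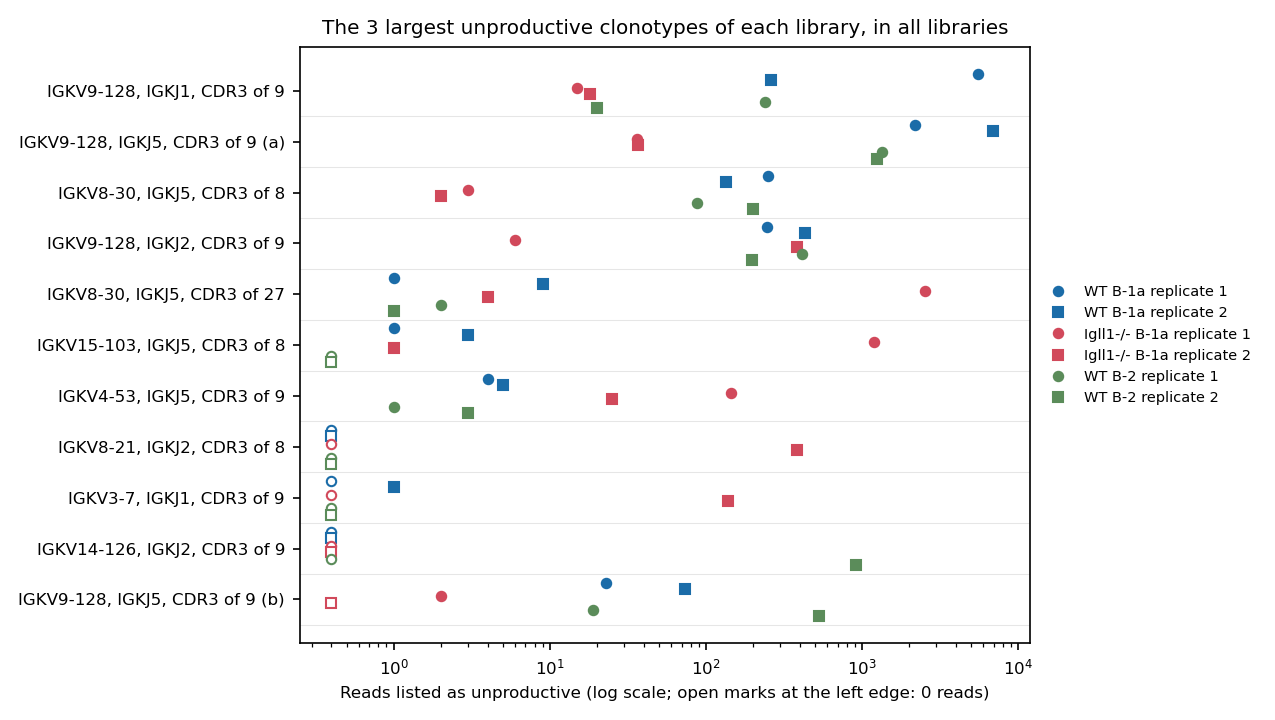
Reads listed as unproductive in each library, on a log scale, for the 11 clonotypes that were among the 3 largest of any library. LQHASSPWT, LQHASSPLT and LQHASSPYT of IGKV9-128 are found in all 6 libraries, and LQHASSPPT of IGKV9-128 and IGKJ5 in 5. Those with IGKJ1 and IGKJ5 are lowest in Igll1-/- B-1a libraries. The 27-residue IGKV8-30 and the 8-residue IGKV15-103 clonotypes are large in 1 library.

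Few unproductive clonotypes were shared. Of the 4101 distinct combinations, 3385 (82.5%) were in 1 library, with 16.3% of the reads, and 47 (1.15%) were in all 6, with 52.4% of the reads. Of 21879 productive combinations, 68.1% were in 1 library and 4.15% in all 6, with 80.1% of the reads. Of the 47 in all 6 libraries, 37 had a stop codon in the CDR3 and 38 used IGKJ5, with 21 different V gene entries. None was among the 10 largest of all 6 libraries. LQHASSPLT and LQHASSPYT of IGKV9-128 were among the 10 largest of 5 each.

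J use in the unproductive class was led by IGKJ5, as in productive clonotypes. How evenly the PCR amplified the 5 J genes was not tested, so J shares, here and below, are those of the amplified product. They do not measure J choice by the cells. IGKJ5, the J gene farthest from the V genes, made up 52.7% and 61.0% of unproductive clonotypes in WT B-1a cells, 64.5% and 47.3% in Igll1-/- B-1a cells and 53.4% and 51.1% in WT B-2 libraries. In productive clonotypes it made up 52.0% and 50.8%, 50.4% and 48.5%, and 47.0% and 46.0%. The difference was 5.90 ± 5.73 percentage points (SD, n = 6), higher in 5 of 6 libraries, with Igll1-/- B-1a replicate 2 the exception (exact permutation p = 0.0938, adjusted over 5 J genes p = 0.156).

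The other J genes gave smaller differences. IGKJ1, the J gene nearest to the V genes, made up 23.2% ± 4.77 of unproductive and 25% ± 3.17 of productive clonotypes, and IGKJ2 20.9% ± 5.46 and 24.3% ± 2.40 (SD, n = 6). IGKJ4 made up 0.792% ± 0.422 and 1.30% ± 0.266. IGKJ3, whose segment in the mouse is regarded as a pseudogene, made up 0.0872% ± 0.043 and 0.334% ± 0.106 and was lower in the unproductive class in 6 of 6 libraries (exact permutation p = 0.0312, adjusted p = 0.156). None of the 5 passed after adjustment.

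Between groups, the libraries did not overlap in 5 of the 15 comparisons of unproductive J use (33.3%). That is the share a random order of 2 against 2 libraries gives, so the count is no evidence of a difference. Among them was IGKJ3, at 0.105% in WT B-1a and 0.100% in WT B-2 cells. IGKJ2 made up 25.1% ± 0.30 in WT B-2 cells, above WT B-1a cells at 19.7% ± 3.47 and Igll1-/- B-1a cells at 17.9% ± 8.95 (SD, n = 2). IGKJ5 was 56.9% ± 5.88 in WT B-1a, 55.9% ± 12.2 in Igll1-/- B-1a and 52.2% ± 1.63 in WT B-2 cells. All adjusted exact permutation p-values were 1. Libraries of 1 group also differed within kinds of clonotype. IGKV9-128 used IGKJ1 in 47.3% of its unproductive clonotypes in WT B-1a replicate 1 and in 15.9% in replicate 2, while IGKJ5 was used by 82.5% of the long CDR3s with a stop codon of Igll1-/- B-1a replicate 1.

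**Figure D5:**
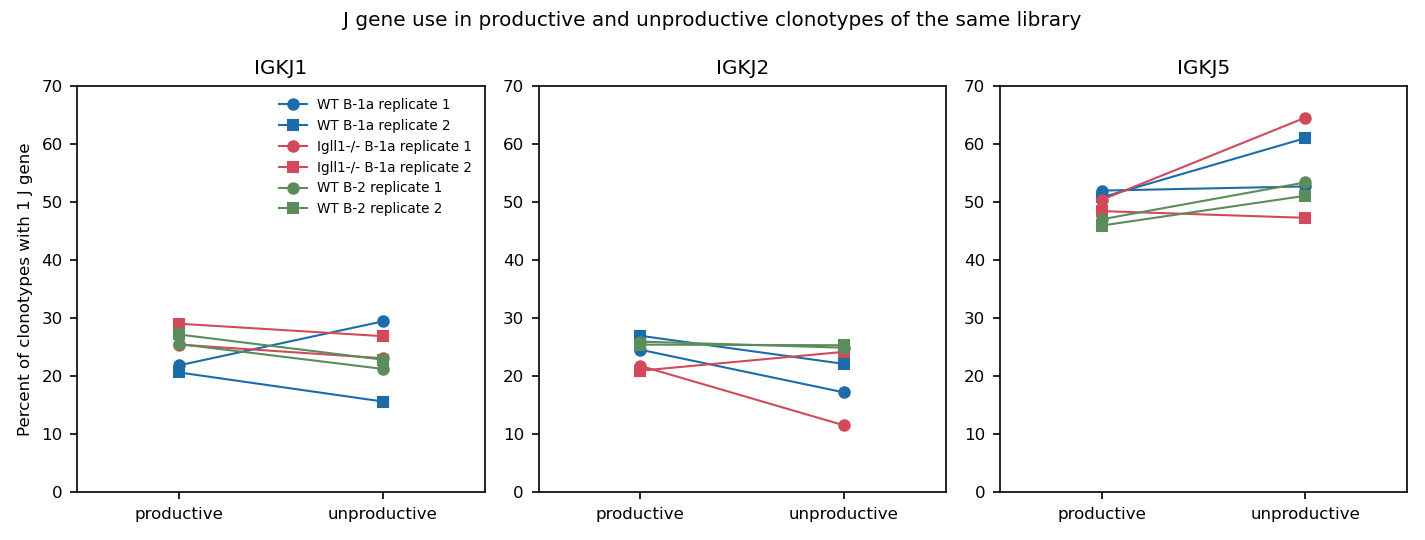
Share of IGKJ1, IGKJ2 and IGKJ5 among productive and unproductive clonotypes with 1 J gene, with a line for each library. IGKJ5 is higher in the unproductive class in 5 of 6 libraries, most in Igll1-/- B-1a replicate 1 (64.5% against 50.4%).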

How the data were processed

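Clonotype tables were made by the authors with IMGT/HighV-QUEST and IMGT/StatClonotype from amplicons of sorted cells cut to 100 to 280 bp. Part of the sort gate is not reported here. The deposited counts are whole reads per clonotype, not normalized, and the deposited percent values are identities to the germline V gene. The labels name a different Illumina sequencer from the methods for Igk. The genome build was not given in the sources used here. Depth was 5701 to 8652 clonotypes in a library, and the upper limit that a count of 0 allows, 3 clonotypes, was 0.296% to 0.397% of its unproductive ones.

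Clonotypes were counted by V gene, J gene and functionality. V use was tested by edgeR 4.0.16 (quasi-likelihood, Benjamini-Hochberg over the 84 V genes that reached 10 clonotypes in 2 or more of 12 columns, library size the clonotype total of that library and class, library as a block between classes), checked on simulated data. The simulation gave all V genes and libraries the same spread. It does not cover the wider spread between the Igll1-/- B-1a replicates. DESeq2 1.42.0, TMM, other clonotype filters, reads, a replicate block and leaving out each library were alternatives. Other values were tested by exact permutation in Python 3.11.15. Members and lists were chosen with earlier results of these data known. Named V genes are the 10 most used, up to 6 per comparison with the largest called differences, and a list of 8.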

Additional observations from a re-analysis of the deposited data

Results flagged for a closer look

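IGKV3-12 was flagged because the difference between WT B-1a and WT B-2 cells was unequal in unproductive and productive clonotypes, by edgeR's test of that interaction (log2 value 2.17, SE 0.529, edgeR adjusted p = 0.0181, 1 of 84 V genes, 1.19%). It had 6 and 14 unproductive clonotypes in WT B-1a, 0 and 3 in Igll1-/- B-1a and 5 and 3 in WT B-2 libraries, and 0.752% and 0.961%, 0.586% and 1.04%, and 1.55% and 1.41% of productive clonotypes. Of the 14 in WT B-1a replicate 2, 12 had a CDR3 over 12 residues. Without that library the value was 1.58 (edgeR adjusted p = 0.959), and it did not pass with TMM scaling (edgeR adjusted p = 0.170) or DESeq2 (adjusted p = 0.914).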

How the results depend on the processing

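Of the main values and counts under an alternative, 187 stayed the same, 55 moved and 24 reversed, and the cause was not tested. The 2 libraries of a group, and the few clonotypes of most V genes, limit what these counts can resolve. Settings by kind of stop codon were added after seeing the data. Out-of-frame joins were to be an alternative and could not be run, since every CDR3 listed was in frame.

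With only V genes marked functional, the share of clonotypes differed by 2.19 (Igll1-/- minus WT B-1a) and -0.287 percentage points (WT B-1a minus WT B-2), that of reads by 0.600, 0.326 (Igll1-/- B-1a minus WT B-2) and -0.274, and that of the 10 largest by 13.2. With stop codons only these were 1.67, 0.778, 0.870 (against WT B-2) and 8.49. With no stop codon only, against WT B-2, they were -1.13 for clonotypes and -20.7 for the 10 largest, and identity differed by 0.552. IGKJ5 differed between B-1a genotypes by 3.19 in reads, 3.65 from 2 reads and 8.22 from 10 reads, between wild-type groups by -0.793 from 2 reads, and with no stop codon by -6.98 and -2.74 against WT B-2.

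V genes called between B-1a genotypes (15) were 5 from 2 reads, 2 from 10 reads, 7 without near-identical clonotypes and 4 with no stop codon. For Igll1-/- B-1a against WT B-2 (10) they were 6 by DESeq2, 0 from 10 reads (10 unadjusted), 4 without near-identical, 5 functional and 2 with no stop codon. For the wild-type groups (6) they were 3 by TMM, DESeq2, from 2 reads, functional or stop only, 2 with no stop codon, and 1 by reads, from 10 reads or without near-identical. Unproductive against productive (60) gave 26 by TMM, 24 by DESeq2, 31 functional, 19 with stop codons and 0 from 10 reads (7 unadjusted). The interaction gave 5 by reads and 2 functional or stop only between genotypes, and between wild-type groups 2 by reads and 0 by TMM, DESeq2, from 2 or 10 reads, without near-identical or with no stop codon.

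Reversed log2 values between genotypes were 0.25 (IGKV3-9, reads), -1.21 and -5.98 (IGKV6-23, reads, 10 reads) and 0.28 (IGKV8-28, no stop codon). IGKV14-126 was -2.52 between wild-type groups in reads, and IGKV14-130 -2.53 against WT B-2 without Igll1-/- B-1a replicate 2 and 1.42 without replicate 1. Against productive they were 0.018 and 0.22 (IGKV6-23, DESeq2, stop only), -1.25 and -1.32 (IGKV15-103, reads, 10 reads), 0.71 (IGKV1-117, near-identical), -0.79 (IGKV14-130, stop only) and -3.06 (IGKV8-30, no stop codon).

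Leaving out 1 library at a time, V genes called ranged from 5 to 13, 1 to 12 and 0 to 6 for the 3 group comparisons in that order, 47 to 53 against productive, and 0 to 2 and 0 to 1 for the interaction. The 5 summary measures past the threshold became 0 to 0, since 5 pairs cannot reach it. The 10 largest ranged from -30.7 to -2.06, -8.98 to 19.6 and 19.8 to 23.6, and IGKJ5 from -9.56 to 7.68, -4.95 to 12.3 and 0.458 to 8.77. The read share of Igll1-/- B-1a minus WT B-2 ranged from -0.958 to 0.499.

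Replicate numbers did not pair the libraries (correlations of deviations -0.0274, -0.110 and -0.0167). With a replicate block 15, 11 and 5 V genes were called, and group differences such as -0.360 for the share of clonotypes were identical (exact permutation p = 0.5, the smallest 2 pairs allow).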
